A study of Mus musculus with 4 samples.

Results

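The genes described here are 10 members of the mouse MHC class I system, read by 14 of the 39423 probes on the array, which carry 24078 named genes in all. They were taken by gene symbol and comprise the thymus leukemia (TL) antigen genes H2-T18 and H2-T3, the other T region genes H2-T10, H2-T23 and H2-T24, the classical class I genes H2-K1 and H2-D1, the light chain gene B2m, and the peptide transporter genes Tap1 and Tap2. The set was chosen by the measured values, because the H2-T18 signal was low in both pools from mice given azoxymethane (AOM), so the AOM over vehicle ratios of its members are given as a description and support nothing. All 14 probes were well above background on at least 1 array and 9 on all 4.

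Each of 4 arrays was hybridized with RNA pooled from the colons of 3 to 5 male mice, 42 weeks old, of a mixed B6.129 background at backcross generation 3. The groups were Pla2g3+/+ (wild-type) and Pla2g3-/- mice, the latter lacking a secreted phospholipase A2, each with 1 vehicle (saline) pool and 1 AOM pool. AOM is used to induce colon tumors, and these mice had 6 weekly injections of 10 mg/kg and were sampled 28 weeks later. The labels call the AOM tissue colorectal cancer, while the methods describe the whole descending colon. Each group is a single array of pooled RNA, so the ratios below have no replicate check and none was tested. The MHC haplotype of the mice in each pool was not measured, and its part in any difference between pools was not tested.

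Class I molecules are cell surface proteins made of a heavy chain and the light chain beta-2 microglobulin. The classical ones, H2-K and H2-D, show peptides from inside the cell to CD8 T cells after the transporter made of Tap1 and Tap2 has carried those peptides into the endoplasmic reticulum. The T region of the MHC on chromosome 17 encodes nonclassical relatives, among them the TL antigen. In the gut TL antigen is known from epithelial cells, it binds the alpha homodimer of CD8 found on intraepithelial lymphocytes, and inbred strains differ in which TL genes they carry and where these are expressed.

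The array reads each gene through probes of 60 bases, and the probes of the T region are shown first because the results turn on what they can tell apart. H2-T18 has 3 probes, numbered here by brightness, and the array files give none of them a position on the mm9 genome. Probes 2 and 3 are nearly the same stretch shifted by 4 bases, and the run of 34 bases that they share is in capitals.
H2-T18 probe 2: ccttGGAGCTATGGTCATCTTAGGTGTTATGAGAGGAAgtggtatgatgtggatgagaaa
H2-T18 probe 3: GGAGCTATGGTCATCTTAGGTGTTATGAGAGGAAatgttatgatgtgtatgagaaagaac
Over the 56 bases that can be aligned, 53 were identical and 3 differed. Counted from 1 at the 5′ end of probe 2, with the base of probe 2 first and that of probe 3 last, these were G39A, G42T and G52T. Both probes therefore read the same stretch and are not independent readings of the gene. Probe 1 is a different stretch, which starts with cttgggcaaacttgaaaggactgggtcact and shared no run over 15 bases with a probe of any other gene. No run over 14 bases was shared between probes 2 or 3 and a probe of another gene on the array. Probes were compared with other probes only, not with transcripts. Whether the H2-T18 probes also read H2-T3 or other TL transcripts was therefore not tested.

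By contrast, the probe of H2-T23 and the dimmer probe of H2-K1 had 29 bases in common, shown in capitals, so that these readings may share transcripts.
H2-T23 probe: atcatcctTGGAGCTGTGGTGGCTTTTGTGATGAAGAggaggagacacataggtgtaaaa
H2-K1 probe 2: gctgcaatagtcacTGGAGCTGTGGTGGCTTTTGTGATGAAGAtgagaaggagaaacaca
The H2-T23 probe and H2-K1 probe 2 each shared a long run with 2 probes of other genes, counting each other. Transcripts of a further gene may therefore add to each reading. The longest run that H2-T18 probe 2 had in common with the H2-T23 probe was 10 bases. The H2-T3 probe starts with aaaggattgagaatatctgagtattgtgga and shared 22 bases with a probe of H2-Q10, whose log2 signal was -1.28 in the wild-type AOM pool and -1.17 in the AOM pool labeled Pla2g3-/-. It shared no more than 6 bases with H2-T18 probe 1. No probe of another gene shared 14 bases or more with the probes of H2-T10, H2-D1, B2m and Tap1.

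Values below are relative signals, in which the 75th percentile of each array's intensities is set to 1, or their log2. That percentile was an intensity of 646 and 649.9 in the wild-type and Pla2g3-/- vehicle pools and of 1309 and 1169 in the AOM pools. Between 64.8% and 69.4% of the spots were well above background, and the lowest such intensity was 10.7 to 17.1. Pla2g3 itself went against its labels, with a log2 signal of its brightest probe of -0.91 and -0.61 in the wild-type and Pla2g3-/- vehicle pools and of -2.11 and 0.48 in the AOM pools. Whether the probes lie in the deleted part is not given in the sources used here, so each pool is called below by its label and every genotype direction rests on that label. Markers of pancreatic acinar cells were above background for 6 of 6 probes in the vehicle pool labeled Pla2g3-/-, for 3 in wild-type vehicle and for none in either AOM pool.

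H2-T18 was well above background in both vehicle pools and in neither AOM pool by all 3 of its probes. Probe 1 gave a relative signal of 0.753 in the wild-type vehicle pool, 0.565 in the vehicle pool labeled Pla2g3-/-, 0.00359 in the wild-type AOM pool and 0.00426 in the AOM pool labeled Pla2g3-/-. In intensity these were 486, 367, 4.69 and 4.98, the last pair below the lowest signals well above background on their arrays, 16.4 and 17.1. Both vehicle pools stood far above both AOM pools and the ranges did not overlap. H2-T18 was chosen for its low AOM signals. The share of all probes with both vehicle pools above both AOM pools was not counted, here or for the genes below. Where a signal was not well above background it was set to the lowest such signal on its array, or to its own if higher, so the ratio is a bound. On that basis probe 1 had a log2 AOM over vehicle ratio of -5.91 or less in wild-type and was at least 38.6-fold lower under the Pla2g3-/- label, where the log2 ratio was -5.27.

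Probe 2 read 0.290, 0.322, 0.00479 and 0.0128 in the same order of pools, at least 23.1-fold lower after AOM in wild-type, with log2 bounds of -4.53 there and -4.46 under the Pla2g3-/- label. Probe 3 read 0.139, 0.0856, 0.00289 and 0.00341, at least 11.1-fold and 5.85-fold lower. Under the Pla2g3-/- label the log2 bound of probe 3, -2.55, was -1.91 with a common floor set after scaling, -1.70 with no scaling and -0.77, within 2-fold, with normexp and quantile normalization. All 3 probes thus had both vehicle pools above both AOM pools, with the smallest bounds for the probe that was dimmest in the vehicle pools. In bulk tissue, fewer cells of a type and less RNA per cell cannot be told apart.

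H2-T3, the other TL antigen gene, had its probe on chromosome 17 of mm9 from 36322516 to 36322575. Its intensities in the vehicle pools were 48.5 and 32.6, not far above the lowest signals well above background. Its relative signals were 0.0752, 0.0502, 0.00307 and 0.00740, above background in both vehicle pools and in neither AOM pool, as for H2-T18. The ratio was at least 5.98-fold lower after AOM in the wild-type pools and at least 3.43-fold lower in those labeled Pla2g3-/-, log2 bounds of -2.58 and -1.78. These were -1.72 and -1.14 with the common floor, -1.56 and -0.93 with no scaling, and -0.73 and -0.47 with normexp and quantile normalization, so that H2-T3 did not stay beyond 2-fold under every setting. No ratio between the AOM pools could be had for H2-T18 or H2-T3, since both sides were below background.

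**Figure D1:**
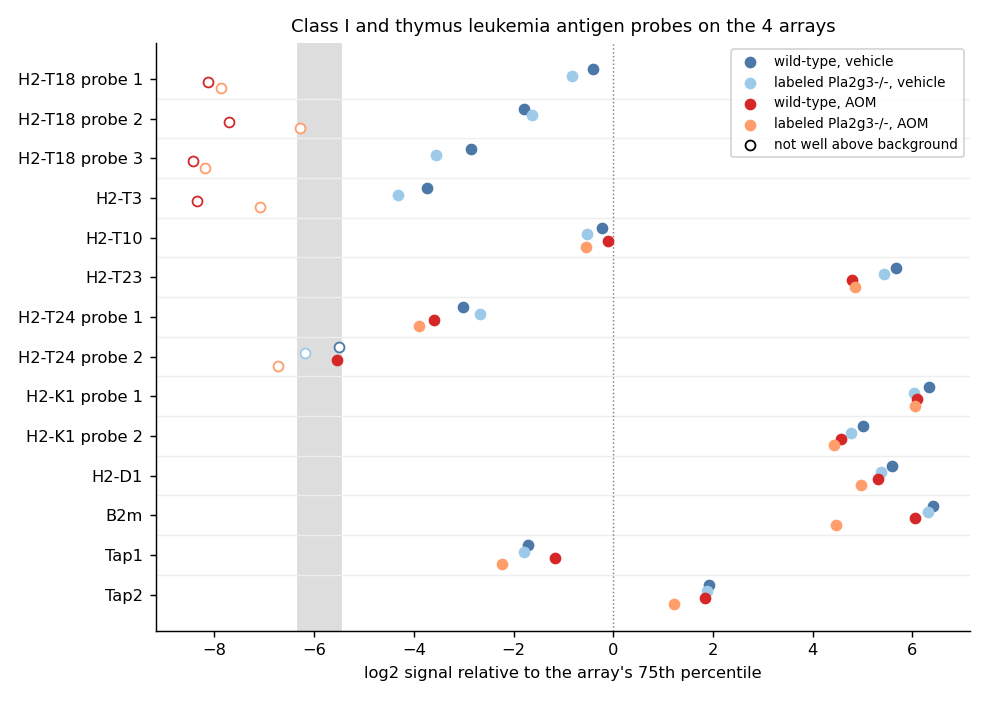
Log2 signal relative to the 75th percentile of the array (horizontal axis) for the 14 probes in each of the 4 pools, filled where well above background and open where not, while the grey band spans the lowest signals well above background on the 4 arrays. The AOM points of H2-T18 and H2-T3 are open and lie at or left of that band.

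How often a probe went from above background in both vehicle pools to not above it in both AOM pools was counted over the array. Of 24631 probes above background in both vehicle pools, 342 (1.39%) were not above it in both AOM pools, while 781 went the other way. Among 11621 probes as bright in both vehicle pools as the dimmer reading of H2-T18 probe 1, there were 3 others that did so. They were probes of Ugt2b5, a glucuronosyltransferase, Il22ra2, the soluble receptor for interleukin 22, and Iapp, the islet amyloid polypeptide. Counted from the lowest ratio, the bound of H2-T18 probe 1 stood 74th of 28443 probes in the wild-type pools and 73rd of 26914 in those labeled Pla2g3-/-. That bound is set by its vehicle signal and by the lowest signal well above background on the AOM array. H2-T18 was chosen for its low signal in both AOM pools, so these counts and ranks are a description only.

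The genes most like H2-T18 probe 1 in pattern were sought by Euclidean distance between the 4 log2 signals, each probe centered on its own mean, over 25780 probes. The 5 nearest genes were Cyp3a44 at 0.51, Iapp at 0.73, Defb37 at 0.82, and Retnlb and Ugt2b36, both at 0.95. H2-T18 probe 1 was itself below background in both AOM pools, as were 4 of these 5, so their order rests partly on signals that cannot be told from background. Retnlb, a product of goblet cells, was the one of them above background after AOM, with log2 signals of 7.39 in the vehicle pool labeled Pla2g3-/- and of 0.24 and -0.75 in the wild-type and Pla2g3-/- AOM pools.

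H2-T10, H2-T23 and H2-T24 lie in the same region of chromosome 17, between 36142640 and 36322575 of mm9, and their probes were read in all the pools except for the dimmer probe of H2-T24. H2-T10, which is known as a ligand of some gamma delta T cell receptors, is read from 36255918 to 36255977 and gave 0.851, 0.695, 0.927 and 0.681. Its vehicle and AOM pools overlapped, and the AOM over vehicle log2 ratios were 0.12 in wild-type and -0.03 under the Pla2g3-/- label. H2-T23 encodes Qa-1, which shows leader peptides of other class I chains to the CD94 and NKG2 receptors of natural killer cells. Its probe, from 36167338 to 36167574, gave 50.9, 43.3, 27.6 and 28.8, so that both AOM pools lay under both vehicle pools. The log2 ratios were -0.89 and -0.59 relative to the 75th percentile, but -0.10 and -0.02 with quantile normalization and 0.13 and 0.26 with no scaling.

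H2-T24 probe 1, from 36142640 to 36142699, gave 0.123, 0.156, 0.0832 and 0.0668. Again both AOM pools were under both vehicle pools, with log2 ratios of -0.57 in wild-type, which was 0.45 with no scaling, and -1.22, or 2.33-fold lower, under the Pla2g3-/- label. The latter was within 2-fold with no scaling, at -0.38, and with normexp and quantile normalization, at -0.60. Probe 2, from 36143605 to 36143664, was well above background in the wild-type AOM pool only, at 0.0213, and the bound for the other AOM pool was at least 1.46-fold below it.

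The same stretch of chromosome 17 holds 16 probes with other names, of which 14 gave ratios. After AOM, 10 of the 14 were over 2-fold lower in the wild-type pools and 4 in those labeled Pla2g3-/-, beside 21.8% and 15.6% of all probes, and none was higher. None of the 16 went from above background in both vehicle pools to not above it in both AOM pools. Over the array 1.39% of the probes above it in both vehicle pools did so. At that share, a count of none among 16 does not set these probes apart. The 3 with the widest range were an unnamed transcript at 36217026 to 36217085, an unnamed probe at 36214591 to 36214650, and Gm8909 at 36302302 to 36302361. The first had log2 signals of -0.79, -1.47, -6.69 and -4.62, the second -1.92, -2.42, -6.28 and -4.93, and Gm8909 2.75, 2.40, -1.29 and 1.32. In each of these 3 the wild-type AOM pool was lowest, followed by the AOM pool labeled Pla2g3-/-. The wild-type AOM signal of the first was not well above background, so its ratios to that pool are bounds. H2-T9, within the same stretch at 36177171 to 36177230, had log2 signals of -0.41, -0.80, -0.41 and -0.48, with log2 AOM over vehicle ratios of -0.00 and 0.32. It was chosen for mention after its values were seen.

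H2-K1 was read by 10 replicate spots of probe 1 on each array, from 34133055 to 34133114 of chromosome 17. The mean relative signal over spots was 81.1 ± 2.74 (SD, n = 10 spots) in the wild-type vehicle pool and 65.3 ± 1.23 in the vehicle pool labeled Pla2g3-/-. After AOM it was 68.2 ± 1.98 and 66.0 ± 1.74. These spots share 1 labeling, so the SD covers spotting and scanning only, and by that measure the wild-type vehicle pool stood above the other 3, which lay close together. Probe 2, from 34133984 to 34134043, gave 32.2, 27.2, 23.8 and 21.6. The log2 AOM over vehicle ratios of probe 1 were -0.25 and 0.01, and those of probe 2 were -0.44 and -0.34. With quantile normalization they became 0.65 and 0.80 for probe 1 and 0.29 and 0.17 for probe 2, so the sign of this small difference is set by the scaling.

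H2-D1, the other classical gene, was read on chromosome 17 from 35403886 to 35403945 at 47.9, 41.5, 39.4 and 31.4. The wild-type vehicle pool was highest and the AOM pool labeled Pla2g3-/- lowest, with log2 AOM over vehicle ratios of -0.28 and -0.40. Both turned positive with quantile normalization, 0.58 and 0.15. Neither H2-K1 nor H2-D1 passed 2-fold in any of the 4 comparisons.

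B2m is on chromosome 2, read from 121978401 to 121978460, and its product is the light chain of all the heavy chains above. Its relative signals were 85.6, 79.8, 66.5 and 22.2, so that 3 pools lay near each other and the AOM pool labeled Pla2g3-/- stood apart below them. In that pool B2m was 3.00-fold below wild-type AOM, and its log2 ratio to its own vehicle pool was -1.85. With quantile normalization these log2 ratios were -1.85 and -1.23, both still beyond 2-fold. In wild-type the AOM over vehicle log2 ratio was -0.37, but 0.52 with quantile normalization.

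Tap1, read from 34330854 to 34330913 of chromosome 17 by 10 spots, gave mean relative signals of 0.306 ± 0.0128 (SD, n = 10 spots) and 0.288 ± 0.0126 in the vehicle pools. After AOM it gave 0.448 ± 0.0159 in wild-type and 0.212 ± 0.00641 under the Pla2g3-/- label. The wild-type AOM pool was highest and the other AOM pool lowest, and their spots did not overlap, and the ratio between these 2 pools was 2.11-fold. With normexp background correction and quantile normalization together, that log2 ratio was -0.72 in place of -1.08, under 2-fold. Tap2, from 34353116 to 34353175, gave 3.78, 3.68, 3.56 and 2.32. As for B2m, 3 pools were close and the AOM pool labeled Pla2g3-/- was lowest, 1.53-fold under wild-type AOM. Its log2 AOM over vehicle ratios were -0.09 and -0.67, and the former was 0.21 with quantile normalization.

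**Figure D2:**
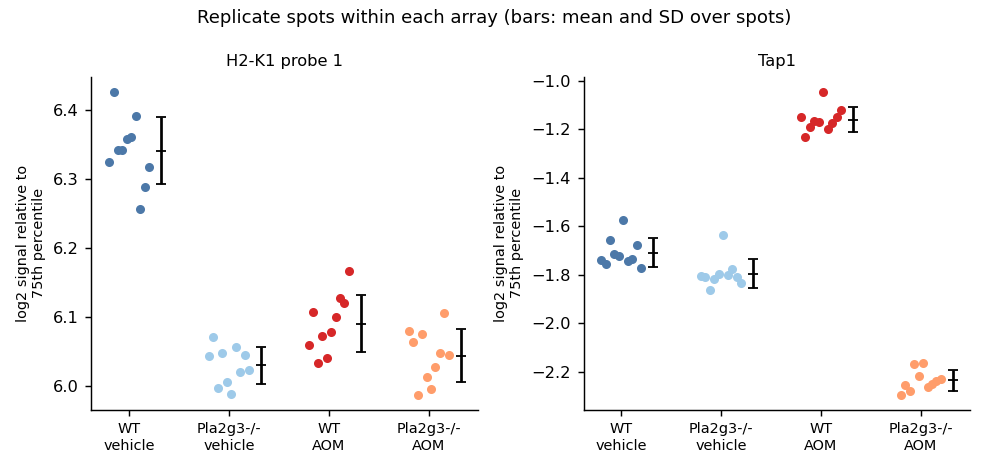
Log2 signal relative to the 75th percentile (vertical axis) of the 10 replicate spots of H2-K1 probe 1 and Tap1 in each pool, with the mean and SD over spots beside them. The Tap1 spots of the 2 AOM pools lie apart, around -1.16 and -2.24.

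The first comparison between genotype labels was made in the vehicle pools. The genes were chosen by the fall of H2-T18 after AOM, which takes in its vehicle signals, and not by a ratio between genotype labels. None of the 13 member probes with a ratio was over 2-fold higher or lower in the pool labeled Pla2g3-/-. Over all 26548 probes with a ratio, 2.12% were over 2-fold higher and 1.53% lower. Members below 0 numbered 11 of 13, and 10 were below the median of all probes, which was itself below 0. The median log2 ratio was -0.24 over the members beside -0.04 over all probes. Some member probes overlap in sequence, so they are not independent readings. The member farthest from 0 was H2-T18 probe 3 at -0.70, or 1.62-fold, then H2-T3 at -0.58, while H2-T18 probes 1 and 2 were at -0.41 and 0.15. The probes of H2-T18 that overlap in sequence therefore had opposite signs here.

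Between the AOM pools, 10 member probes had a ratio, of which 2 were over 2-fold lower under the Pla2g3-/- label and none higher. These were B2m and Tap1, at 3.00-fold and 2.11-fold. Over all 28310 probes, 12.1% were over 2-fold lower and 14.1% higher. The median log2 ratio was -0.39 over the members and 0.03 over all probes, and Tap2 at -0.62 was the nearest member outside 2-fold. The log2 ratio of H2-T23 was 0.06, and -0.16 with quantile normalization, and that of H2-K1 probe 1 was -0.05, and 0.03 with median scaling.

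In the AOM over vehicle comparisons, which chose the set, 4 of 13 member probes were over 2-fold lower in the wild-type pools, the 3 of H2-T18 and that of H2-T3, and none was higher. Over all 28443 probes, 21.8% were lower and 14.9% higher. In the pools labeled Pla2g3-/-, 6 of 13 were over 2-fold lower, the same 4 with B2m and H2-T24 probe 1, and none higher. Over 26914 probes, 15.6% were lower and 11.2% higher. By the brightest probe of each gene, 2 of 10 members were lower in wild-type, beside 23.0% of all genes. Under the Pla2g3-/- label 4 of 10 were lower, beside 16.7%. With no scaling the median of all probes moved from -0.18 to 0.86 in wild-type and from -0.07 to 0.76 under the Pla2g3-/- label, so these counts hold relative to the 75th percentile. Nearest to 2-fold from outside were H2-T23 at 1.85-fold in wild-type and Tap2 at 1.59-fold under the other label, and nearest from inside was H2-T24 probe 1 at 2.33-fold. Median log2 ratios were -0.44 and -0.67 for the members and -0.18 and -0.07 for all probes.

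**Figure D3:**
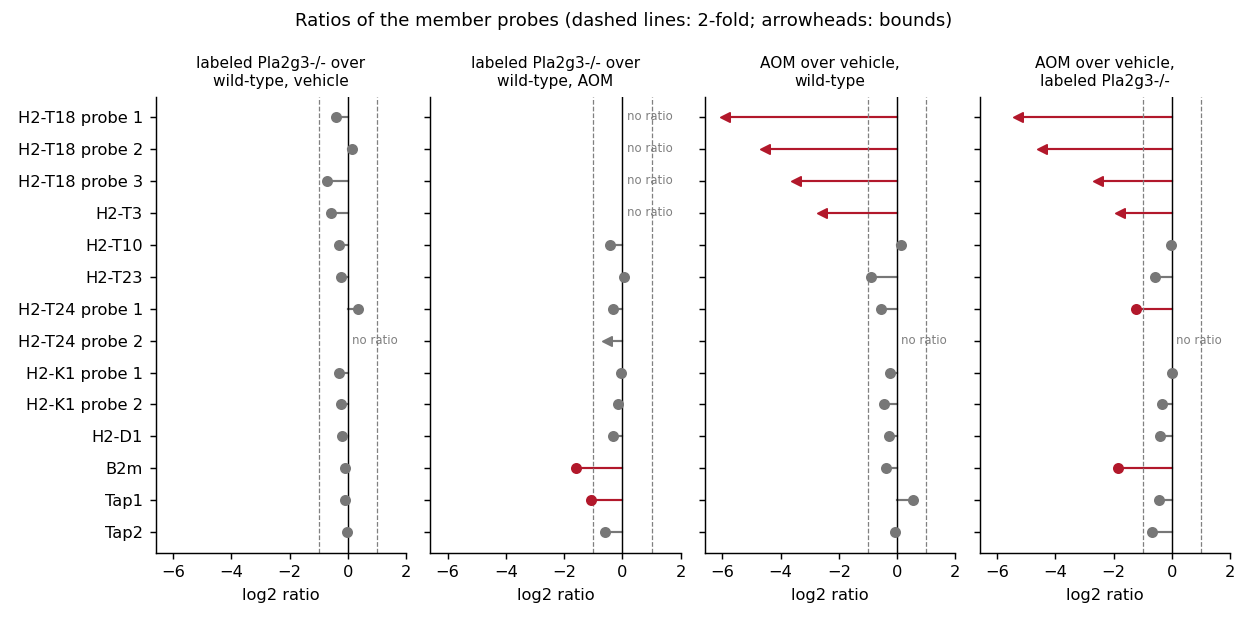
Log2 ratio of each member probe (horizontal axis) in the 4 comparisons, with dashed lines at 2-fold, red beyond it and grey within, where arrowheads are bounds and "no ratio" marks probes below background on both sides or whose bound reached the brighter side. Beyond 2-fold are the TL antigen probes in both AOM over vehicle panels, B2m and H2-T24 probe 1 in that of the Pla2g3-/- label, and B2m and Tap1 between the AOM pools.

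Of 26108 probes with AOM over vehicle ratios under both labels, 2169 (8.31%) were over 2-fold lower in both, and 4 of the 13 members were among them. Over 16-fold lower in both were 40 probes (0.153%), with H2-T18 probes 1 and 2 among these. The 2 comparisons share no array, but H2-T18 was chosen for its low signal in both AOM pools. Its place among these probes follows from that choice and supports nothing.

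**Figure D4:**
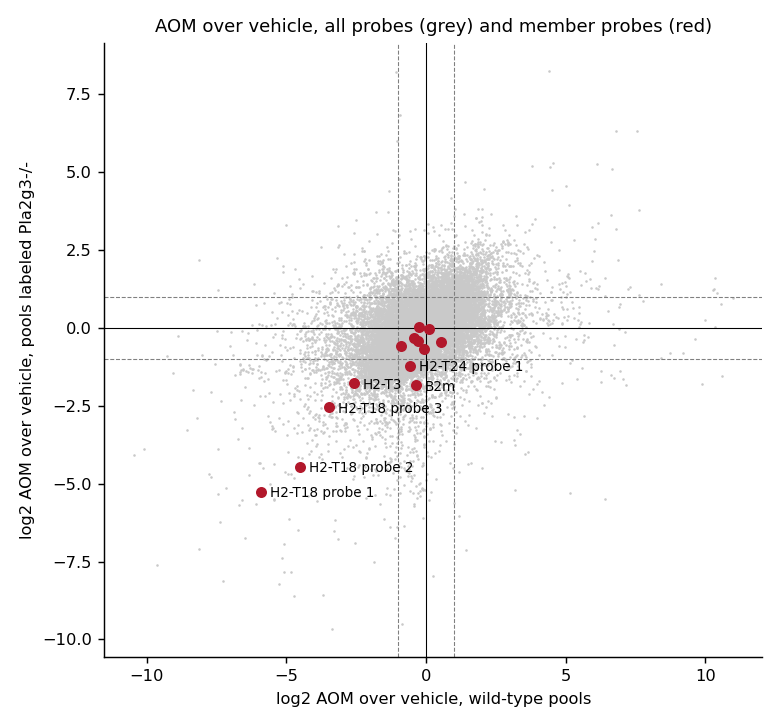
Log2 AOM over vehicle ratio in the wild-type pools (horizontal axis) and in the pools labeled Pla2g3-/- (vertical axis) for 26108 probes, the 13 members among them in red and the rest in grey, with bounds at their value and dashed lines at 2-fold. The 3 probes of H2-T18 and that of H2-T3 lie below 2-fold on both axes and B2m and H2-T24 probe 1 on the vertical axis alone.

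Cell type markers on the same arrays are given beside the TL antigen genes. Relative signals summed over 8 probes of 7 genes of CD8 and intraepithelial T lymphocytes were 9.67 and 11.7 in the wild-type and Pla2g3-/- vehicle pools and 1.82 and 0.698 in the AOM pools. After AOM, 5 of the 8 probes were over 2-fold lower and 1 was higher in wild-type, beside 21.8% and 14.9% of all probes. Under the Pla2g3-/- label 6 were lower and none was higher, beside 15.6% and 11.2%. Gzma, a granzyme of cytotoxic lymphocytes, made up most of the sums in the vehicle pools. It went from 7.36 to 0.749 in wild-type and from 9.44 to 0.104 under the Pla2g3-/- label. Both Cd8a probes were below background in the AOM pool labeled Pla2g3-/- and above it in wild-type AOM, and Cd160 was below it in both AOM pools. The part of these cells in the TL antigen signal was not tested.

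Colonocyte markers, 11 probes of 6 genes, summed to 497 and 554 in the vehicle pools, 50.2 in wild-type AOM and 319.6 in the AOM pool labeled Pla2g3-/-. All 11 were over 2-fold lower after AOM in wild-type, beside 21.8% of all probes. Under the Pla2g3-/- label 3 were lower and 2 higher, beside 15.6% and 11.2%. Aqp8, a water channel of surface colonocytes, read 93.4, 99.4, 0.358 and 54.1 by its brighter probe. All 11 were well above background in the AOM pool labeled Pla2g3-/-, and the part of colonocytes in the H2-T18 signal was not tested. Epithelial markers summed to 478, 488, 297 and 504, and smooth muscle markers to 395, 413, 24.6 and 367. Leukocyte markers summed to 12.6, 12.5, 15.5 and 3.06, a sum carried mainly by Cd52 at 9.56, 9.36, 9.26 and 1.52. Between the AOM pools 6 of 6 leukocyte probes were over 2-fold lower under the Pla2g3-/- label, beside 12.1% of all probes. After AOM, 3 of 6 were higher and none lower in wild-type, beside 14.9% and 21.8%. Under the Pla2g3-/- label 2 of 6 were lower and none higher after AOM, beside 15.6% and 11.2%. The Laptm5 probes had log2 ratios of 0.16 and -0.33 there. The part of leukocytes in the B2m signal was not tested. Wnt targets of colon tumors summed to 4.95, 4.79, 33.9 and 4.30.

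**Figure D5:**
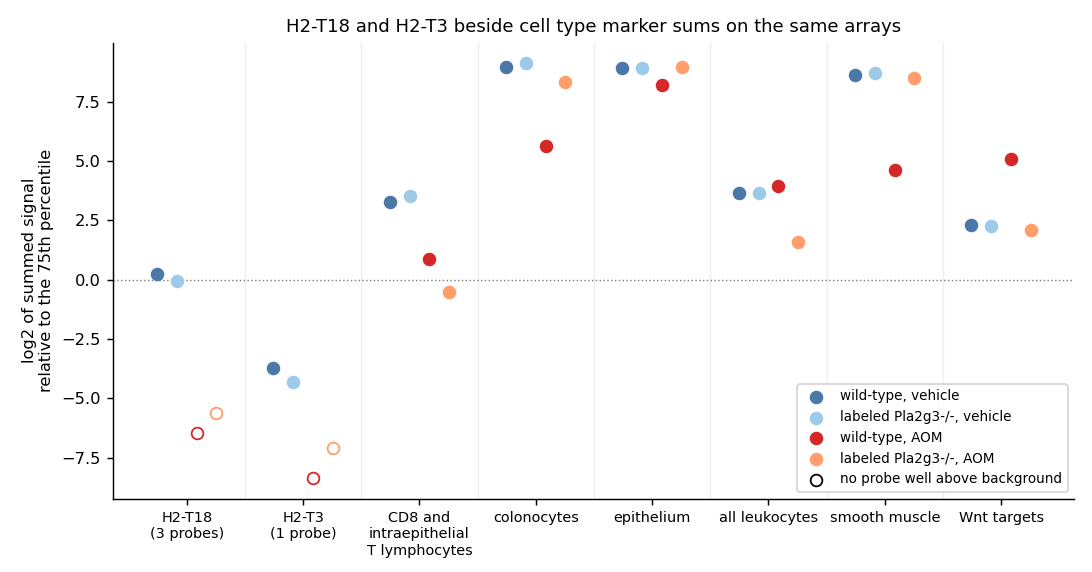
Log2 of the relative signal summed over probes (vertical axis) for H2-T18, H2-T3 and 6 marker lists in each pool. H2-T18 and H2-T3 are open, below background, in both AOM pools, whereas the colonocyte and smooth muscle sums are low in the wild-type AOM pool and near the vehicle pools in the other.

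Other genes of the class I pathway were read from lists. Of 26 probes of 20 further class I genes of the MHC, 5 of 19 with a ratio were over 2-fold lower after AOM in wild-type and 1 higher, and 3 of 15 were lower under the Pla2g3-/- label, near the 21.8% and 15.6% lower over all probes. H2-Q1 had log2 signals that fell from 2.13 to -2.08 in wild-type and from 1.98 to 1.02 under the Pla2g3-/- label, where the log2 ratio of -0.96 stayed within 2-fold. H2-Q5 gave 0.19 and 2.41 in the wild-type vehicle and AOM pools and 0.28 and -1.57 in the others. H2-M2 had a log2 ratio of -2.40 between the AOM pools by its dimmer probe, beside -0.08 by its brighter one, and H2-M10.4 was above background in the wild-type vehicle pool only. These 4 genes were picked by size of ratio.

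Class I-like molecules encoded outside the MHC had 19 probes of 15 genes, of which 17 had a ratio after AOM under each label. In wild-type 3 of 17 were over 2-fold higher and 3 lower, beside 14.9% and 21.8% of all probes, and under the Pla2g3-/- label 3 were higher and 2 lower, beside 11.2% and 15.6%. Ulbp1, a ligand of the activating receptor NKG2D, had log2 AOM over vehicle ratios of 0.74 and 1.30 by its brighter probe and bounds of at least 1.87 and 1.34 by its dimmer one. Azgp1, a class I-like glycoprotein, had log2 ratios of -1.86 and -2.18. Procr, the protein C receptor, had log2 ratios of 1.91 and 0.07, and H60b was above background in the wild-type vehicle and Pla2g3-/- AOM pools only.

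Among 8 peptide loading and trimming genes, which help class I molecules to bind peptide, none passed 2-fold in any of the 4 comparisons. The widest log2 ratios were those of Tapbpl, -0.87 in wild-type after AOM, of Ide, 0.86, and of Calr, -0.71 under the Pla2g3-/- label, while Erap1 stayed between -0.00 and 0.22. Immunoproteasome subunits, which cut peptides for class I, were lower after AOM under the Pla2g3-/- label for 3 of 4 probes with a ratio, beside 1 of 5 in wild-type, with 15.6% and 21.8% of all probes lower. Their log2 ratios there were -1.32 for Psmb8, -1.37 for the brighter probe of Psmb9 and -1.03 for Psmb10, and -0.22, -0.54 and -1.26 in wild-type. Between the AOM pools 1 of 5 was over 2-fold lower under the Pla2g3-/- label, Psmb8 at -1.16, while Psmb9 was at -0.93 and -0.06 and Psmb10 at 0.39.

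Regulators of class I transcription included Nlrc5, the transactivator of class I genes, whose log2 AOM over vehicle ratio was 2.73 in wild-type and -0.70 under the Pla2g3-/- label by its brighter probe and 0.72 and -0.38, both within 2-fold, by its dimmer one. Of the 14 probes of this list with a ratio, 4 were over 2-fold higher and 2 lower in wild-type, and 1 higher and 3 lower under the other label, beside 14.9% and 21.8%, and 11.2% and 15.6%, of all probes. Rfxank, a subunit of the RFX complex, was among the lower ones in both, at -2.46 and -1.13. Of 18 probes for receptors of class I molecules, 6 of 13 were over 2-fold lower after AOM in wild-type and 7 of 10 under the Pla2g3-/- label, beside 21.8% and 15.6% of all probes. Klrd1, which encodes CD94, had a log2 ratio of -1.82 and a bound of -3.80, and both probes of Cd8a were lower in both. The brightest Klra7 probe was below background in both AOM pools, and Klra1 had log2 ratios of 0.80 in wild-type and -0.26 under the Pla2g3-/- label. The probes of Pirb disagreed, with -0.81 and -0.52 by the brightest of 3, 1.55 and -0.25 by the next, and a bound of 0.06 in wild-type by the dimmest.

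Interferon-stimulated genes were read by 23 probes of 17 genes. After AOM, 11 were over 2-fold higher and 5 lower in wild-type, and none higher and 10 of 22 lower under the Pla2g3-/- label, with 14.9% higher and 21.8% lower, and 11.2% higher and 15.6% lower, over all probes. Between the AOM pools 16 of 23 were over 2-fold lower under the Pla2g3-/- label, beside 12.1% of all probes. Log2 ratios were -7.42 and -6.04 for the probes of Cxcl9, -4.90 for the brighter and a bound of -0.78 for the dimmer probe of Cxcl10, and -1.75 for the brighter and -3.45 for the dimmer probe of Iigp1. They were -3.32 for Ifit2, -3.20 for Usp18, -2.25 for Gbp3, -2.11 for Ifi44 and -2.04 for Igtp. Also lower in this comparison were 6 of 6 leukocyte, 6 of 7 macrophage and dendritic cell, 3 of 4 B cell and 2 of 3 plasma cell probes, whose part in these values was not tested. The class I heavy chains H2-K1 and H2-D1 were within 2-fold in the same comparison. After AOM in wild-type, 3 of 6 leukocyte and 5 of 7 macrophage and dendritic cell probes were over 2-fold higher and none lower. In those pools 2 of 4 B cell and 1 of 3 plasma cell probes were lower and none higher. Isg15 was lower in both AOM pools, at -1.56 and -3.24 by its brighter probe.

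Promoter windows of RefSeq, on GRCm38.p6, were found for 6 of the 10 genes and cover 250 bases before to 50 after the start. They are shown because interferon-stimulated genes differed between the AOM pools and class I promoters are known to carry an interferon response element beside a kappa B site. The letters TTTCNNTT, searched on both strands and set after the sequences had been seen, occur in 23.9% of all 32851 windows, and GGGATTCCC in 0.353%. Matches to either are in capitals below, each line running 5′ to 3′ on the strand of the gene.
H2-K1, chr17:34000403-34000462, minus strand: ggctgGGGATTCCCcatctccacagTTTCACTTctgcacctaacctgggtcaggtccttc
H2-D1, chr17:35262919-35262978, plus strand: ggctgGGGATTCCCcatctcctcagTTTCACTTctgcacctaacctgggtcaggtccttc
H2-T3, chr17:36190243-36190302, minus strand: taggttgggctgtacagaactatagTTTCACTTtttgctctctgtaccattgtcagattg
B2m, chr2:122147525-122147584, plus strand: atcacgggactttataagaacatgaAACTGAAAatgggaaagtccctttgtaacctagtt
H2-K1 and H2-D1 held both strings, H2-T3 and B2m only the first, H2-T23 the first at 2 places, and Tap1 neither. A match is a description of these letters only. The match of B2m is on the opposite strand.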

How the data were processed

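RNA pooled within each of 4 groups was hybridized to 1 one-color Agilent array per group, all on 1 slide. The authors deposited scanner files from Agilent Feature Extraction (version 11.5.1.1), in which the processed intensity is background-subtracted and detrended, with low values replaced by a surrogate, and not scaled between arrays. The deposited table holds a ratio, that intensity over the 75th percentile of its array, which was checked against the scanner files (maximum relative difference 1.02e-06, column medians 0.0965 to 0.101). Here outlier spots were left out (104 to 139 of 43020 per array), 0 were saturated, spots of 1 probe were averaged, and log2 values were taken after scaling to the 75th percentile. Ratios with 1 side not well above background are bounds, and a probe beyond 2-fold was counted. The number of arrays limits the precision.

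Members and lists were chosen with earlier results of these data known. Named genes were all members, the 2 largest rises and falls of each pathway list with any probe past 4-fold, the 5 nearest to H2-T18 in pattern, and the 3 widest-ranging other probes of the T region. Some probes that this rule names are given only within counts. Alternatives changed the scaling, background correction, dim-probe rule, probe choice, fold threshold and source table. Python 3.11.15 with numpy 2.4.6 and pandas 2.3.3 was used, and R 4.3.3 with limma 3.58.1 for quantile and normexp (offset 50) alternatives. The counting was tested on simulated data. Gene names are those of the array design and can be old. Probe positions are on mm9 as the files give them, and no annotation of that build was used, so exon and UTR are not given.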

Additional observations from a re-analysis of the deposited data

Results flagged for a closer look

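The AOM over vehicle ratio had opposite signs under the genotype labels, beyond 2-fold in each, for 7 probes of the class I and interferon-stimulated lists. Those of Cxcl9, Cxcl10, Iigp1 and Usp18 are from the interferon-stimulated list. The share of all probes on the array with such opposite signs was not counted, so these 7 have no share beside them. The log2 difference, wild-type less Pla2g3-/-, was 7.66 and 6.32 for the probes of Cxcl9, 4.57 for Cxcl10, 3.65 for Iigp1, 2.97 for Usp18, 4.08 for H2-Q5 and 2.69 for Rfx5. For Rfx5 the wild-type value is a bound, since its vehicle signal was not well above background. The other probes did not all show this: the brighter Iigp1 probe had log2 ratios of 1.11 and -0.65, the other Rfx5 probe had bounds of at least 1.30 and 0.01, and the dimmer Cxcl10 probe had a bound of 0.60 in wild-type and no ratio under the Pla2g3-/- label. With 1 array per group these differences were not tested, and Pla2g3 itself went against the labels.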

How the results depend on the processing

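Of 96 recomputed counts of member probes, from 8 counts under 12 alternatives, 84 stayed within 1.5 times and 12 moved. Each count of higher probes, and the count lower in the vehicle pools, was 0 to begin with. The deposited table holds the same values to within rounding, so that alternative could move no count. Of 382 recomputed ratios, 125 moved by at least 0.0657 in log2, the largest median SD over replicate spots. A change of sign was looked for only in ratios beyond 2-fold, and none was found. Ratios within 2-fold did change sign, as for H2-D1 above. In the vehicle pools the count lower was 1 at 1.5-fold. Between the AOM pools the count higher was 2 with the background call ignored, and the count lower was 1 with normexp and quantile normalization and 0 at 4-fold. For AOM over vehicle in wild-type the count higher was 2 with no scaling, and the count lower was 0 with both arrays required above background and 2 with the brightest probe or the mean of probes per gene. Under the Pla2g3-/- label the count lower was 3 with normexp and quantile normalization and 2 with both arrays above background. It was 3 with the mean of probes and 3 at 4-fold. The 0 and 2 with both arrays above background follow from leaving out H2-T18 and H2-T3, which were below it in the AOM pools. With normexp and quantile normalization the log2 ratios of H2-T18 probe 1 were -2.66 and -2.33. The share of calls that were higher went from 40.6% to 87.8% in wild-type and from 41.7% to 90.8% under the Pla2g3-/- label with no scaling, and to 50.4% and 51.0% with quantile normalization. No paired analysis was possible because each group has 1 array and no result comes from a test.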
